A study of Mus musculus with 6 samples.

Results

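The 10 genes of the oocyte actin network described here were taken from 53700 gene rows in each count table: Fmn2, Spire1, Spire2, Myo5b, Actr2, Actr3, Arpc2, Cfl1, Pfn1 and Ezr. They were chosen by name for their part in spindle positioning and in the actin cortex, with earlier results of these data known. Their Ensembl identifiers were matched to symbols, and all 10 were found and passed the filter on low counts. PolyA RNA was sequenced from germinal vesicle (GV) oocytes, which are arrested in meiotic prophase, of mice on a C57BL/6N background. The 2 groups were wild type (Zar +/+) and Zar1 knockout (Zar -/-), with 3 libraries each and 10 oocytes in every library. The sources used here do not give the age of the animals, any treatment, the deleted part of Zar1 or how many animals a pool came from. The labels call the 3 libraries of each genotype biological replicates, and the edgeR p-values set the genotype difference against the spread between these libraries. ZAR1 binds RNA in oocytes, and the comparison asks which of these mRNAs differed in level without it.

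A fully grown oocyte divides asymmetrically, and actin moves its spindle from the centre to the cortex. The formin FMN2 and the SPIRE proteins nucleate straight filaments together and build a mesh through the cytoplasm, on vesicles that carry RAB11A and that the motor myosin Vb moves. At the cortex the Arp2/3 complex, whose subunits include the products of Actr2, Actr3 and Arpc2, nucleates branched filaments. Profilin feeds actin monomers to formins, cofilin severs old filaments, and ezrin ties filaments to the plasma membrane.

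Each library held between 32126555 and 39148833 gene counts. Zar1 itself had 12810 to 15245 counts per wild-type library, against 69 to 226 per knockout library. The 10 oocyte markers summed to between 20483 and 21870.1 CPM (gene counts over 1000000 counts of the scaled library) in wild type, against between 22372 and 24281 in the knockout. Of these 10, 6 rose, among them Zp2 and Zp3 of the egg coat, and Bmp15, an oocyte growth factor, fell. The 14 markers of granulosa or cumulus cells summed to between 59.1 and 64.6 CPM in wild type, against between 52.3 and 64.4 in the knockout. Most of that sum came from Cyp19a1, at between 35.6 and 53.8 CPM in all 6 libraries, while Fshr and Amh stayed at or below 1.26 CPM. Single libraries stood out: Cyp11a1 had 1.92, 1.02 and 6.13 CPM in knockout replicates 1, 2 and 3, and Fshr 0, 47 and 0 counts. Of the 11 granulosa or cumulus markers that were tested, Kitl fell from 4.02 to 0.797 CPM (edgeR adjusted p = 0.00222) and Has2 rose from 1.74 to 4.61 CPM (0.00712). The stroma marker Pdgfra fell from 0.660 to 0.0471 CPM (0.00601), from between 16 and 28 counts per wild-type library to at most 4 per knockout library. The part of these shifts in the results on actin genes was not tested. The 4 erythrocyte markers had no counts in any library. Levels are relative to the other polyA RNA of a library, so a change of total mRNA per oocyte would not show, although every library was made from 10 oocytes.

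The 3′ ends of the members were read from the longest protein-coding transcript of each in GENCODE M21 (build GRCm38, mRNA sense strand), because stored oocyte mRNAs are known to be controlled through sequences close to the poly(A) tail. The last 100 bases of the annotated 3′ UTR held the poly(A) signal AATAAA in 9 of the 10 members, Spire2 being the exception, against 66.5% of 12342 tested protein-coding genes with a window of that length. The letters TTTTAT, a cytoplasmic polyadenylation element, were found there in 1 member, Spire1, against 15.2% of those genes, and the letters of these motifs cannot overlap. Stretches of 30 bases that end in the last poly(A) signal are shown for the Fmn2, Actr2, Actr3 and Arpc2 mRNAs, whose levels differed between the genotypes, with the signal in capitals. The Fmn2 stretch, from chromosome 1, holds the signal at 2 places, and the other 3, from chromosomes 11, 1 and 1, at 1 each.
Fmn2: aatttatatgaaAATAAAatgaatAATAAA
Actr2: aatatacttctttttaattaagaaAATAAA
Actr3: ggatcatgaagaaaaagtgatgacAATAAA
Arpc2: taaagaaatacggttggggtcattAATAAA
In whole annotated 3′ UTRs, TTTTAT occurred 6 times in Actr2 (2385 bases), 4 times in Spire1 (3082 bases), and 2 times each in Fmn2 (1484 bases) and Actr3 (1089 bases). Arpc2 (414 bases), Myo5b (1044 bases) and Ezr (1262 bases) had it 1 time each. Spire2 (121 bases), Cfl1 (1708 bases) and Pfn1 (274 bases) had none. No share over all genes was computed for whole 3′ UTRs, and longer ones have more room for a match. Other forms of either motif were not searched for. A match of letters is a description and does not show a working site.

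Of the 10 members, 5 fell in the knockout, 2 rose and 3 did not pass the quasi-likelihood test of edgeR (Benjamini-Hochberg adjusted p of 0.05 or less, over 16473 genes). Of all tested genes 33.4% were called, 18.5% lower and 14.9% higher. The members that fell were Fmn2, Spire1, Myo5b, Actr2 and Actr3, and those that rose were Spire2 and Arpc2. Groups of libraries did not overlap in 7 of the 10, against 47.8% of all tested genes. The members were chosen with earlier results known, so their shares beside those of all genes are no test of the network. The changes were small: 6 of the 7 called members were below 1.5-fold, against 33.8% of all called genes, and Spire2 was the exception. With offsets that take out each library's trends over GC content and transcript length, the calls of Fmn2 and Arpc2 held and those of the other 5 were lost. The members' median log2 fold change was -0.20, and that of all tested genes was 0.00745. The members' levels were above the median of tested genes in wild type, except those of Spire2 and Ezr.

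**Figure D1:**
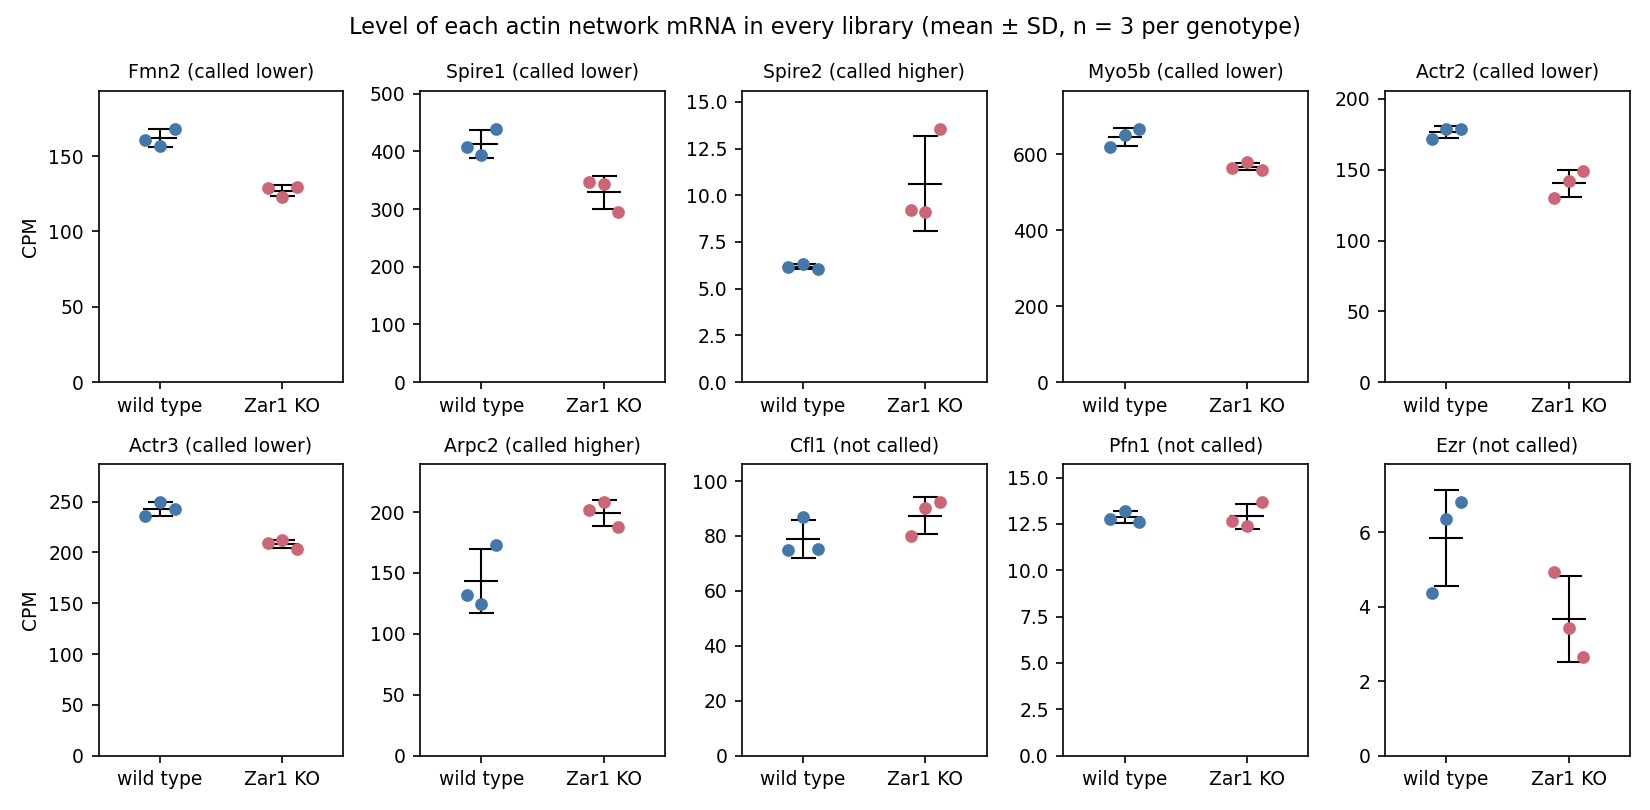
Level of each of the 10 actin network mRNAs in CPM (vertical axis, from 0) in the 3 wild-type (blue) and 3 Zar1 knockout libraries (red); the line and bars are mean ± SD. The knockout points lie below every wild-type point for Fmn2, Spire1, Myo5b, Actr2 and Actr3, and above every one for Spire2 and Arpc2.

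Wild-type levels were ordered per kilobase of transcript, since longer mRNAs collect more reads. Arpc2 had 99.6 ± 18.3 CPM per kilobase (mean ± SD, n = 3), Myo5b 95.7 ± 3.65 and Actr3 94.6 ± 2.62, and these neighbours overlapped in their ranges. Spire1 followed at 76.4 ± 4.43, Actr2 at 48.6 ± 1.17 and Cfl1 at 33.6 ± 2.94. Fmn2 stood lower at 25.1 ± 0.916 and Pfn1 at 14.9 ± 0.376, and no ranges overlapped from Actr3 downward. Spire2 (2.65 ± 0.0488) and Ezr (1.85 ± 0.41) were the lowest, at percentiles 46.4 and 40.3 of all tested genes, where Arpc2 was at 95.3. The longest annotated transcript need not be the form an oocyte makes, which limits this order.

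Fmn2 (ENSMUSG00000028354.14), the formin of the cytoplasmic mesh, had 161, 157 and 168 CPM in the wild-type libraries, against 129, 123 and 129.6 in those of the knockout. Each knockout value was below each wild-type value, and the spread within a genotype was narrow. Fmn2 fell by 21.5% (log2 fold change -0.35 ± 0.07 SE, edgeR adjusted p = 0.00537). Its partner Spire1 (ENSMUSG00000024533.18) had 407, 393 and 439 CPM in wild type, against 347, 344 and 296 in the knockout. Spire1 was again lower in every knockout library, with knockout replicate 3 the lowest (log2 fold change -0.33 ± 0.08, adjusted p = 0.0161), and its call was lost without wild-type replicate 3 (adjusted p = 0.0727). The paralog Spire2 (ENSMUSG00000010154.8) moved the other way, from 6.19, 6.30 and 6.07 CPM to 9.19, 9.12 and 13.6. The 3 wild-type values of Spire2 were nearly the same, and knockout replicate 3 stood above the other two (log2 fold change 0.78 ± 0.19, adjusted p = 0.0144; 0.56 and 0.0283 without that library, 0.76 and 0.0537 without wild-type replicate 3). Spire1 held 98.5 ± 0.109% of the counts of both Spire genes in wild type, against 96.8 ± 1.04% in the knockout (mean ± SD, n = 3). That share was lower in 3 of 3 knockout libraries, with an exact two-sided permutation p of 0.1, the smallest that 3 against 3 libraries allow, and 0.2 after adjustment over 6 such shares.

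Myo5b (ENSMUSG00000025885.19), the vesicle motor, had the highest CPM of the members, 619, 649.8 and 668 in wild type, against 564, 579 and 559.7 in the knockout. The groups were separate but close. Its log2 fold change of -0.19 ± 0.06 had an adjusted p of 0.0473, and it missed the threshold in 12 of 16 alternative settings (adjusted p between 0.0187 and 0.314 over all 16). Among the class V myosins Myo5b made up 92.4 ± 0.694% of counts in wild type, against 91.5 ± 0.749% in the knockout (exact permutation p = 0.2). Per kilobase, wild-type Myo5a stood at 4.49 CPM and Myo5c at 0.101 CPM. Neither passed the test (adjusted p = 0.730 and 0.231), although Myo5c did with no filter on low counts (0.00821).

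Other genes that make straight filaments were taken from a list of formins, Spire proteins and related nucleators. Of 19 measured, the 3 members included, 3 rose, 6 fell and 10 did neither, with a median log2 fold change of -0.29. The largest difference in the list was that of Cobl, a nucleator that binds several actin monomers, from 15.9, 31.4 and 25.6 CPM in wild type to 2.06, 1.42 and 3.06 in knockout. Cobl therefore fell 11.1-fold (log2 fold change -3.47 ± 0.33, adjusted p = 0.000125). Its relative Cobll1 fell from 156 ± 10.4 to 106 ± 5.64 CPM, and the formin Fhod1 from 3.64 ± 0.470 to 1.88 ± 0.458. The call of Fhod1 was lost when wild-type replicate 1 or 3, or replicate 1 or 2 of the knockout, was left out (adjusted p between 0.0569 and 0.0830). Among formins that rose, Fmnl3 went from 315 ± 20.7 to 465 ± 36.0 CPM (adjusted p = 0.00106, log2 fold change 0.56 ± 0.08) and Diaph3, of the diaphanous family, from 38.7 ± 1.41 to 52.2 ± 3.25. Per kilobase in wild type, Fmn2 was the seventh of the 19, below Daam1 (86.9 ± 9.83), Spire1, Fhod3 (76.0 ± 3.73), Fmnl3 (71.2 ± 4.69), Diaph1 (48.7 ± 1.45) and Cobll1 (30.8 ± 2.05 CPM per kilobase). Daam1, Fhod3 and Diaph1 are named here after their values were seen. Without wild-type replicate 3, 3 genes of the list fell in place of 6.

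The mRNAs of the Arp2/3 complex went in both directions, though with the offsets only 1 gene fell. Of the 10 measured genes of the complex, the members Actr2, Actr3 and Arpc2 included, 5 rose, 3 fell and 2 did not pass, and the median log2 fold change was 0.24. With the GC and length offsets 5 rose and 1, Arpc4, fell. Actr2 (ENSMUSG00000020152.8), which encodes the actin-related protein ARP2, had 172, 179 and 179 CPM in wild type, against 130.3, 142 and 149 in the knockout. All knockout libraries were lower (log2 fold change -0.33 ± 0.08, edgeR adjusted p = 0.0103), but with the GC and length offsets the change was -0.06 ± 0.08 and the call was lost (adjusted p = 0.554). Actr3 (ENSMUSG00000026341.17), which encodes ARP3, had 236, 249.6 and 242 CPM in wild type, against 209, 212 and 203 in the knockout. The groups were again separate, by a smaller margin (log2 fold change -0.22 ± 0.07, adjusted p = 0.0284), and the call was lost in 10 of 16 alternatives (adjusted p between 0.0129 and 0.717; log2 fold change -0.04 with the offsets). Arpc2 (ENSMUSG00000006304.15), a subunit of the complex's core, had 132, 125 and 173 CPM in wild type, against 202, 208 and 187 in the knockout. Wild-type replicate 3 lay nearer to the knockout libraries than to the other two. Arpc2 rose 1.39-fold (log2 fold change 0.48 ± 0.12, adjusted p = 0.0163), which no longer passed when wild-type replicate 1 or 2 was left out (adjusted p = 0.0714 and 0.0667).

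Among the other subunits, Arpc1a changed the most, from 48.0, 41.8 and 42.1 CPM in wild type to 193, 133 and 107 in the 3 knockout libraries (log2 fold change 1.71 ± 0.19, adjusted p = 0.000292). Its lowest knockout library was still above every wild-type library. Arpc1b, the paralog of Arpc1a, rose from 108 ± 4.44 to 131 ± 5.97 CPM, but lost its call in 6 of 16 alternatives. It did not pass with wild-type replicate 2 or 3 or knockout replicate 2 left out (adjusted p = 0.0776, 0.102 and 0.0545). The others were no filter on low counts (0.0533), the replicate block (0.0527) and the GC and length offsets with that block (0.0665). Arpc3 rose from 388 ± 13.8 to 506 ± 29.8, and Actr3b, the minor paralog of Actr3, from 5.24 ± 0.70 to 8.77 ± 1.52. Actr3b lost its call when wild-type replicate 1 or 3, or replicate 1 of the knockout, was left out (adjusted p between 0.0584 and 0.0727). Arpc4 fell 1.87-fold, from 24.3 ± 2.99 CPM (adjusted p = 0.00438, log2 fold change -0.90 ± 0.17). Arpc5 (89.9 and 102 CPM) and Arpc5l (265 ± 12.5 and 305 ± 19.7) did not pass. Arpc5l did under upper-quartile factors (adjusted p = 0.0312) and without knockout replicate 3 (adjusted p = 0.0345). Actr3 held 97.9 ± 0.222% of the counts of Actr3 and Actr3b in wild type, against 96.0 ± 0.621% in the knockout, lower in 3 of 3 libraries (exact permutation p = 0.1, adjusted 0.2). Without wild-type replicate 1, 2 or 3, 3 genes of the complex rose in place of 5. In GENCODE M21, 18.2% of the exon bases of Arpc1b and 12.2% of those of Arpc4 lie also in exons of the neighbours Pdap1 and Ttll3, so the counts of these subunits are less certain.

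**Figure D2:**
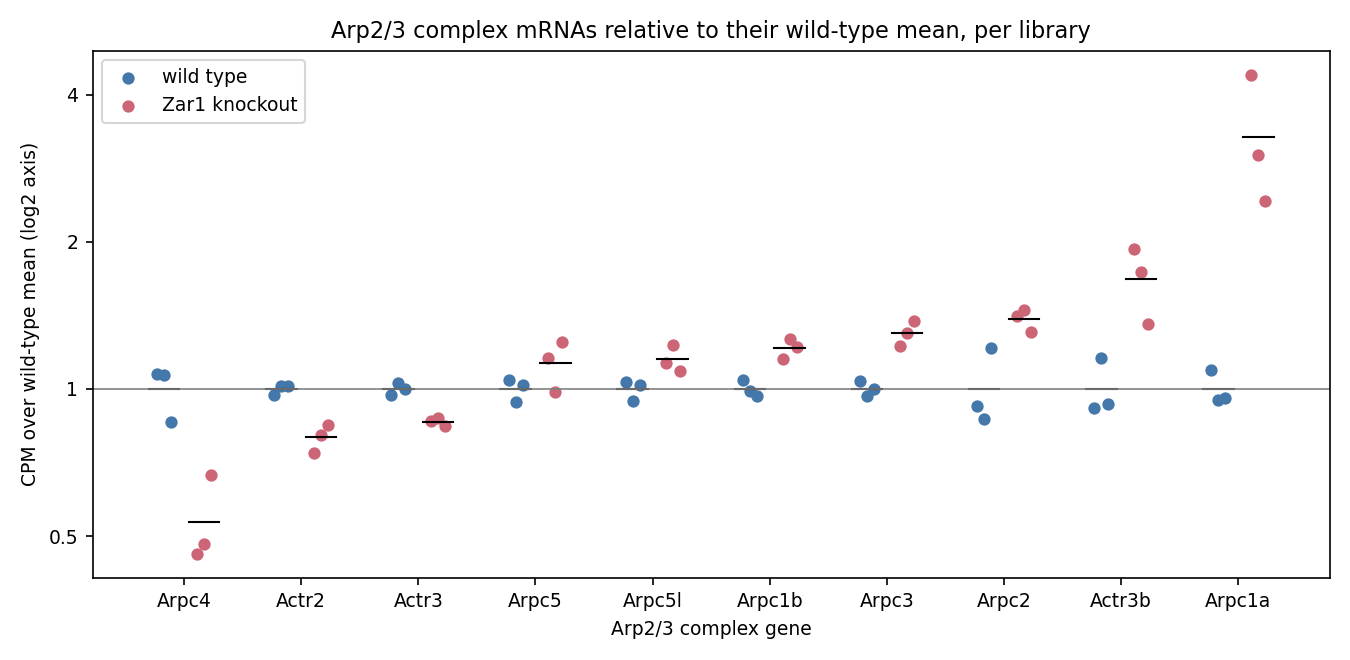
CPM of each Arp2/3 complex gene divided by its wild-type mean (vertical log2 axis) in every library, genes ordered by fold change; blue points are wild type, red points Zar1 knockout, and lines are group means. The knockout points of Arpc4, Actr2 and Actr3 lie below 1, and those of Arpc1a and Actr3b lie furthest above 1.

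Activators and inhibitors of the Arp2/3 complex had 8 of 28 measured genes higher, 3 lower and 17 not passing, with a median log2 fold change of 0.00195. Washc3, a subunit of the WASH complex of endosomes, rose 4.59-fold from 4.64 ± 0.901 to 21.3 ± 3.96 CPM (edgeR adjusted p = 9.97e-05). Whamm, an activator at internal membranes, rose from 94.5 ± 4.36 to 129.8 ± 1.54, and Abi1, of the WAVE complex, from 165 ± 6.69 to 243 ± 34.7. Gmfb, whose product debranches Arp2/3 networks, fell from 35.1 ± 0.986 to 20.7 ± 1.71. The WAVE complex genes Brk1 (308 ± 12.1 to 255 ± 10.6) and Wasf3 (16.8 ± 2.60 to 11.2 ± 1.10) fell as well. Brk1 lost its call without wild-type replicate 3 or knockout replicate 1 (adjusted p = 0.0746 and 0.0658), and Wasf3 without wild-type replicate 2 or knockout replicate 1 (0.0840 and 0.0684). Without wild-type replicate 1, 2 or 3, 5 genes of the list rose, and without knockout replicate 1, 1 fell.

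The members that handle actin monomers and turnover did not pass. Cfl1 (ENSMUSG00000056201.9), the non-muscle cofilin, had 74.9, 87.0 and 75.1 CPM in wild type, against 79.8, 90.2 and 92.3 in the knockout. The groups overlapped (log2 fold change 0.15 ± 0.10, adjusted p = 0.274). Of the exon bases of Cfl1, 16.5% lie also in exons of Snx32 on the opposite strand. Pfn1 (ENSMUSG00000018293.5), profilin 1, had 12.7, 13.2 and 12.6 CPM in wild type, against 12.7, 12.4 and 13.7 in the knockout, with a log2 fold change of 0.01 ± 0.13 (adjusted p = 0.981).

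The paralogs of Cfl1 and Pfn1 were also abundant. Per kilobase in wild type, Cfl2, the cofilin known from muscle, stood at 56.5 CPM against 33.6 for Cfl1 and 25.7 for Dstn, the related severing factor destrin. Pfn2, profilin 2, stood at 26.7 CPM per kilobase against 14.9 for Pfn1. Pfn2 rose from 62.5 ± 2.15 to 78.5 ± 0.701 CPM (edgeR adjusted p = 0.0102, log2 fold change 0.33 ± 0.08) and Dstn from 49.2 ± 1.00 to 62.9 ± 2.65 (0.36 ± 0.08, 0.00967). Both calls were lost without wild-type replicate 3 (adjusted p = 0.0610 and 0.0538). Cfl2 did not pass (166 ± 9.88 and 187 ± 28.3 CPM, adjusted p = 0.258). Pfn1 made up 16.8, 17.1 and 17.3% of the counts of Pfn1 and Pfn2 in the wild-type libraries, against 14.0, 13.6 and 14.7% in those of the knockout. Every knockout share was lower (exact permutation p = 0.1, adjusted 0.2). The share of Cfl1 among Cfl1, Cfl2 and Dstn was 26.8 ± 0.815% in wild type and differed by -0.825 percentage points in the knockout, and the groups overlapped (exact permutation p = 0.6).

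**Figure D3:**
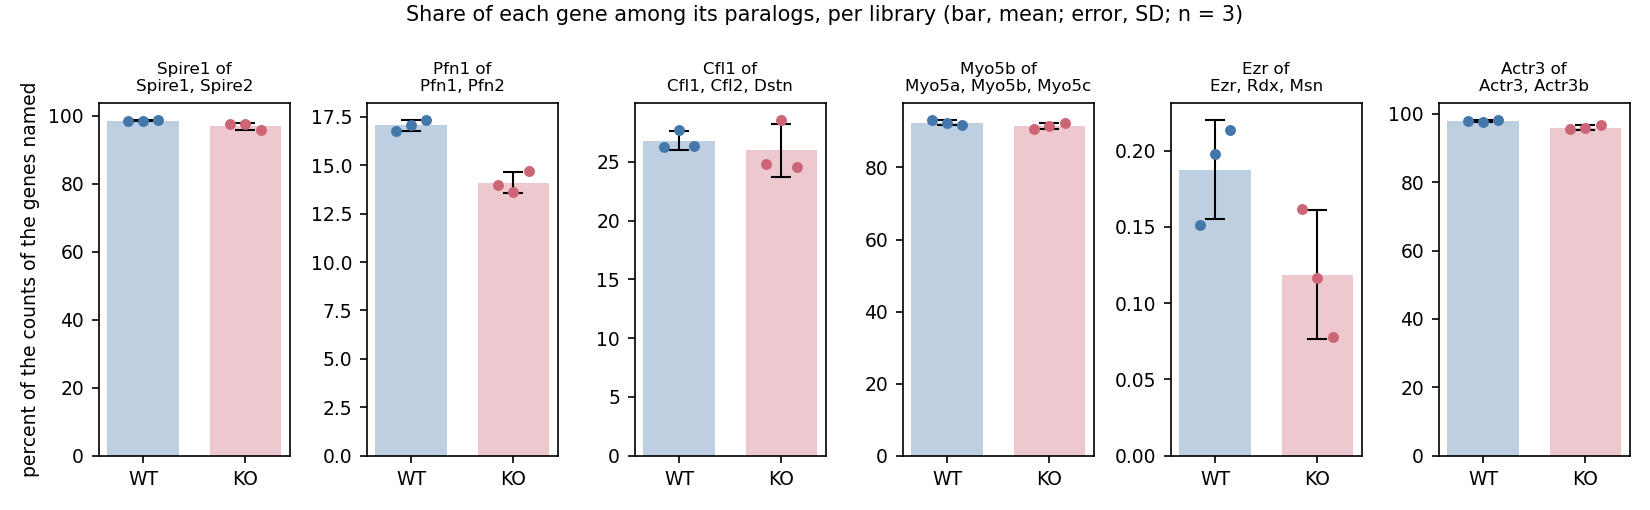
Percent of the counts of a group of paralogs that belong to the member named (vertical axes from 0, each panel with its own scale) in wild type (blue) and Zar1 knockout (red); bars are means, error bars SD, points the 3 libraries. The shares of Pfn1, Spire1 and Actr3 were lower in every knockout library, and Ezr held at most 0.214% in all 6.

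Of 38 measured genes for monomer binding, capping and turnover, Cfl1 and Pfn1 included, 8 rose, 10 fell and 20 did neither, with a median log2 fold change of 0.03. Ssh1, a phosphatase that activates cofilin, rose from 95.1 ± 7.08 to 161 ± 14.6 CPM (adjusted p = 0.000436, log2 fold change 0.76 ± 0.09). Tesk2, a kinase that inactivates cofilin, fell from 17.2 ± 1.23 to 5.42 ± 0.124 (-1.67 ± 0.14, adjusted p = 6.37e-05). The capping protein subunits went opposite ways, Capzb rising from 83.5 ± 4.53 to 118 ± 12.1 and Capza2 falling from 97.5 ± 3.50 to 59.4 ± 0.486. Tmod3, which caps the pointed ends of filaments, rose from 20.9 ± 2.03 to 33.3 ± 3.15, and the severing gene Scin fell from 30.6 ± 1.62 to 15.5 ± 0.541. Without wild-type replicate 3, 5 genes of the list rose, and without wild-type replicate 2, 6 fell.

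Ezr (ENSMUSG00000052397.9), ezrin, was scarce and variable, at 4.37, 6.35 and 6.81 CPM in wild type, against 4.92, 3.43 and 2.65 in the knockout. Wild-type replicate 1 lay within the knockout range, and the log2 fold change of -0.67 ± 0.28 did not pass (edgeR adjusted p = 0.0974; 0.0396 without knockout replicate 1). Its counts were between 97 and 224 per library. Among the mRNAs of ezrin and its relatives, that of radixin was by far the most abundant, and no protein was measured. Rdx had 3091 ± 178 CPM in wild type, against 3134 ± 249.7 in the knockout (log2 fold change 0.02 ± 0.08, adjusted p = 0.869), which is 706 CPM per kilobase in wild type against 1.85 for Ezr and 0.266 for Msn, moesin. Ezr made up 0.187 ± 0.0324% of the counts of the 3 genes in wild type, against 0.119 ± 0.0422% in the knockout (exact permutation p = 0.2).

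Other cortex linkers and crosslinkers had 2 of 28 measured genes higher, 6 lower and 20 not passing, Ezr among the last, with a median log2 fold change of -0.06. Lcp1, the bundling protein plastin 2, rose from 56.3, 51.6 and 71.0 CPM to 170.4, 136 and 206 (log2 fold change 1.52 ± 0.17, adjusted p = 0.000247). Iqgap1, an actin-binding scaffold, rose from 35.7 ± 1.74 to 61.6 ± 12.8. Actn1, an actin crosslinker, fell from 116 ± 17.2 to 70.0 ± 5.27, Slc9a3r1, the ezrin-binding scaffold NHERF1, from 119.7 ± 7.23 to 80.9 ± 9.12, and Slk, a kinase of ezrin and its relatives, from 24.8 ± 0.214 to 17.9 ± 1.53. With the GC and length offsets the balance of the list turned, to 6 genes higher and 3 lower. Under upper-quartile factors 4 genes rose, and without wild-type replicate 3, 3 fell.

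Myosins and their regulators had 6 of 29 measured genes higher and 5 lower, Myo5b among the latter, with a median of 0.23. The light chains Myl6 (23.4 ± 2.38 to 41.2 ± 2.67 CPM) and Myl12a (243 to 360.3) rose, as did Myo18a (31.8 ± 2.08 to 45.3 ± 0.705). Myo1e, a membrane-bound myosin, fell from 17.5 ± 2.58 to 7.01 ± 1.40, and Cdc42bpa, a kinase that acts on myosin, from 228 ± 27.7 to 153 ± 18.7. In place of 5, 3 genes fell under upper-quartile factors, with no filter, with the replicate number as a block, and without any library except knockout replicate 3.

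Rab11a, the GTPase of the vesicles on which FMN2 and SPIRE act, rose from 245, 249.5 and 248 CPM to 307, 372 and 512 (log2 fold change 0.68 ± 0.16, edgeR adjusted p = 0.0104). Its wild-type values were tight and its knockout values spread, all of them higher. Rab11fip5, an adaptor of the same vesicles, rose from 29.3 ± 3.96 to 47.2 ± 4.15 CPM. Of 7 measured actins and tropomyosins, Tpm3 rose from 61.2 to 100.5 CPM, the smooth muscle actin Actg2 fell from 4.13 ± 0.294 to 1.55 ± 0.738, and 5 did not pass.

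**Figure D4:**
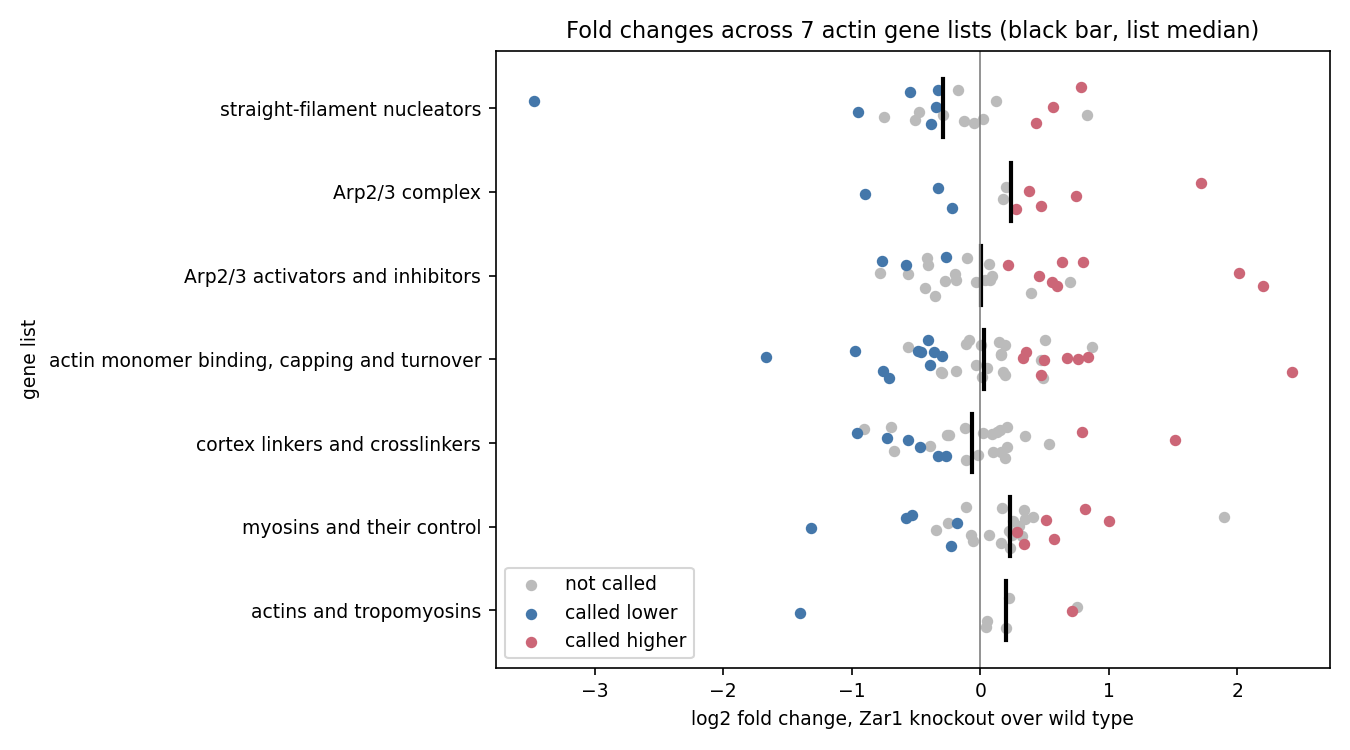
Log2 fold change (Zar1 knockout over wild type) of every measured gene in 7 actin lists, members included; red points were called higher, blue called lower, grey not called, and black bars are list medians, which lie between -0.29 and 0.24. Cobl stands furthest to the left at -3.47.

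Each of the 7 lists held calls in both directions, and their shares of genes called lay between 28.6% and 80%, against 33.4% of all tested genes. The share was 80% for the Arp2/3 complex, and 47.4% each for straight-filament nucleators and for monomer binding, capping and turnover. It was 39.3% for Arp2/3 activators and inhibitors and 37.9% for myosins. Cortex linkers and actins with tropomyosins had 28.6% each.

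Transcript length and GC content moved with the fold changes across all genes. Over 16430 genes Spearman's correlation of the log2 fold change was -0.15 with transcript length and 0.21 with GC content, a description across genes that share the same 6 libraries. Genes with transcripts of 5000 bases or more had a median log2 fold change of -0.15, and those under 2000 bases one of 0.12. Fmn2 (6442 bases, 50.5% GC), Spire1 (5405 bases, 47.9%) and Myo5b (6745 bases, 51.9%) are long, Actr2 (40.3% GC) and Actr3 (43.8%) are low in GC, and Spire2 is rich in it (61.2%), where the median gene had 2660 bases and 48.9%. With offsets for each library's trends over both properties, 2 of the 7 called members passed. They were Arpc2 (log2 fold change 0.53 ± 0.12, edgeR adjusted p = 0.00974) and Fmn2 (-0.23 ± 0.07, adjusted p = 0.0313). The other 5 kept their direction, with Spire2 at 0.42 (adjusted p = 0.121), Spire1 at -0.15 (0.241), Myo5b at -0.11 (0.241), Actr2 at -0.06 (0.554) and Actr3 at -0.04 (0.659). Among the other genes described, the calls of Cdc42bpa (adjusted p = 0.0689) and Slk (0.166) were lost as well, whereas Arpc1a (1.64 ± 0.19, adjusted p = 0.000361) and Arpc1b (0.26 ± 0.08, 0.0317) passed. Cfl2 (0.46, adjusted p = 0.0174) and Rdx (0.24, 0.0323) passed only with the offsets. In the lists, the offsets left 1 Arp2/3 gene and 1 myosin gene lower, and 6 monomer and turnover genes lower. Whether the trends come from the libraries or from the genotype was not tested.

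**Figure D5:**
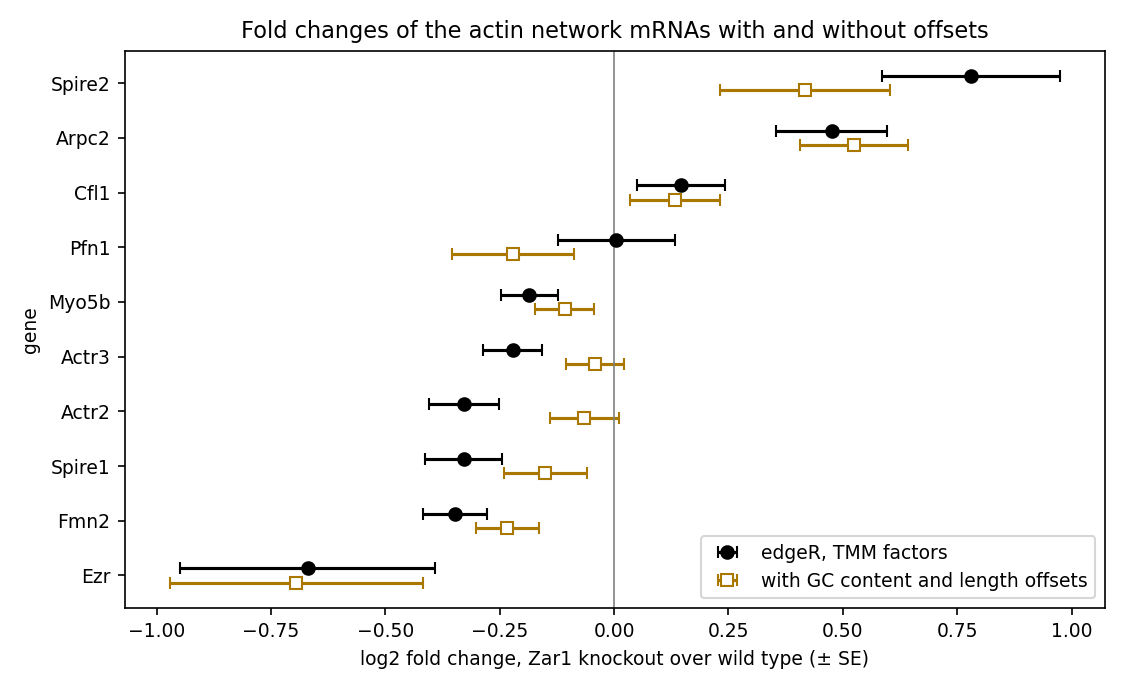
Log2 fold change ± SE of the 10 members (Zar1 knockout over wild type) from the edgeR fit with TMM factors (black) and with offsets for GC content and transcript length (open squares). Arpc2 and Fmn2 stay past the threshold with the offsets, while Actr2 and Actr3 move to -0.06 and -0.04.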

How the data were processed

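PolyA RNA of 6 pools of GV oocytes was sequenced. The authors deposited raw counts per gene and library, made per the submitters' processing notes with STAR 2.7.8a on mm39 and HTSeq 0.13.5 (after cutadapt 2.8 and bcl2fastq 2.20.0.422). The sources used here do not give the annotation release or strand setting, so counts of overlapping or near-identical genes are uncertain. The summary rows, at most 24.8% of the reads counted in a library, were left out. Symbols were found for 52093 of 53700 rows.

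The genotypes were compared through glmQLFit and glmQLFTest of edgeR 4.0.16 (R 4.3.3; filterByExpr, TMM factors, two-sided, Benjamini-Hochberg adjusted p of 0.05), and the steps were tested on simulated data. The simulated data had few changed genes, the same dispersion for every gene and no genotype trend over GC content or length. They therefore do not show how the calls behave under such trends. The SE is the absolute log2 fold change over the square root of F. CPM use TMM factors. Lengths, GC content and 3′ UTRs come from GENCODE M21 (GRCm38, not mm39), so coordinates are not printed. Alternatives were 3 other scalings, 2 other filters, DESeq2 1.42.0, limma-voom (limma 3.58.1), the replicate number as a block, GC and length offsets with and without it, and each library left out. Libraries of 1 genotype differed by more than sampling noise (chi-square per degree of freedom at least 12.8), so none was counted as a duplicate.

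The members and lists were chosen with earlier results of these data known. Named besides the members were the Arp2/3 genes, the paralogs in the shares, and from each list up to 3 called genes in each direction with the smallest adjusted p. Genes outside this rule are marked where named. A further gene list and some genes that the rule takes, including 1 of the myosin list, are not reported here.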

Additional observations from a re-analysis of the deposited data

How the results depend on the processing

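Of the 10 members, 5 were lower in the knockout. That count was 3 under upper-quartile factors, with no filter on low counts or with the replicate number as a block, 1 with GC and length offsets, and 0 with the offsets and the replicate block together in edgeR, where Fmn2 had an adjusted p of 0.0656. It lay between 2 and 5 when each library was left out. The count higher was 2, and 1 with the offsets, alone or with the replicate block, and between 1 and 2 with a library left out. Over all genes, 2448 were higher, between 1541 (without wild-type replicate 3) and 2509 with a library left out. No direction of a member's change turned in any alternative for the 7 called. The labels state no pairing by replicate number, and same-numbered libraries had correlations between -0.0420 and -0.00898. With the replicate block, 2078 genes were higher and 2760 lower. The cause of these shifts was not tested. Ezr rested on 97 to 224 counts per library, and whether depth or the spread between libraries limits it was not tested.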
